A study of Mus musculus with 30 samples.

Results

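The genes described here are components and regulators of complement, a set of 9 named genes comprising C1qa, C1qb, C1qc, C2, C3, C7, Cfb, Cfp and Serping1, followed in the sclera of growing mice. A gene was taken as measured where the annotation of the array gave a transcript cluster, the set of probes read as 1 transcript, with that symbol and no other, and this was so for 8 of the 9, among 19938 such genes on the array. Each of the 8 had a single such transcript cluster, and C3, the protein on which the pathways converge, had none and was not analysed here. Sclera came from Balb/cJ mice, an inbred albino strain, at 5 postnatal ages, namely 1, 2, 3, 6 and 8 weeks, with no treatment or genetic change, and each of 6 arrays per age held the RNA of a single sclera from 1 mouse. By the study's methods the mice were of the same family, so the spread within an age is that of related animals. Values are log2 signals, so that a difference of 1 is a fold change of 2.

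Complement is a cascade of plasma and tissue proteins that marks surfaces for removal and can pierce membranes. In the classical pathway, C1q binds its target and the proteases attached to it cleave C4 and C2, whereas the alternative pathway runs through factor B and is held together by properdin; both end in a pore of terminal components that starts with C5, C6 and C7. Tissue macrophages are a well-known source of C1q, and fibroblasts are known to make C1 inhibitor, the product of Serping1.

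Before the genes are described, an unusual property of the deposited values has to be given. The values of week 2 replicate 4 equalled the mean of the other 5 arrays of week 2 in all 35556 transcript clusters, with a largest difference of 8e-05, and the mean of week 6 replicates 4 and 6 equalled that of the other 4 arrays of week 6 to within 7.5e-05. Of the sets of 1 to 3 arrays of a week compared with the rest of their week, no other was closer than 1.44 at its largest difference. The values therefore held 23 residual degrees of freedom in place of the 25 that 30 arrays in 5 ages would give, and week 2 held 5 arrays with values of their own, over which its spread is given below. The study's methods name a correction for the date of scanning. The labels and methods do not state which arrays shared a date, whether the ties come from that correction was not tested, and what it did to the differences between ages cannot be told from these values. All tests below used limma in a single fit over the 30 arrays. A fit added after seeing the data left out week 2 replicate 4 and gave the tied arrays of week 6 a term of their own. The calls of the complement genes were identical there, and the ties kept their fold changes the same. The SEs were larger, for C1qc in week 2 versus 1 0.143 (adjusted p = 4.66e-08) in place of 0.131 (adjusted p = 3.31e-09). The SEs, intervals and p-values printed below for these genes are thus too small.

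Array medians lay between 6.15 and 6.37, and the interquartile range averaged 2.70, 2.36, 2.75, 2.44 and 2.53 in weeks 1, 2, 3, 6 and 8. All 13 measured markers of scleral fibroblasts, among them collagens and decorin, had a mean signal above that of the median transcript cluster. Markers of neighbouring tissues were also present, and 12 markers of striated muscle averaged 11.12, 7.06, 6.85, 9.83 and 10.49 over the same 5 ages. Since each array measured bulk RNA of a whole sclera, fewer cells of a type and less RNA per cell cannot be told apart.

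The complement genes fell into 3 courses over postnatal growth. The C1q chains, C2 and Serping1 were lowest in week 2. C7 was high in week 6. Factor B was also highest in week 6, by less than the fold threshold, and properdin varied little. All 8 genes differed between the 5 ages (moderated F, adjusted p of 0.00689 or less), but so did 91.3% of all transcript clusters, so that the pairwise comparisons carry the description.

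**Figure D1:**
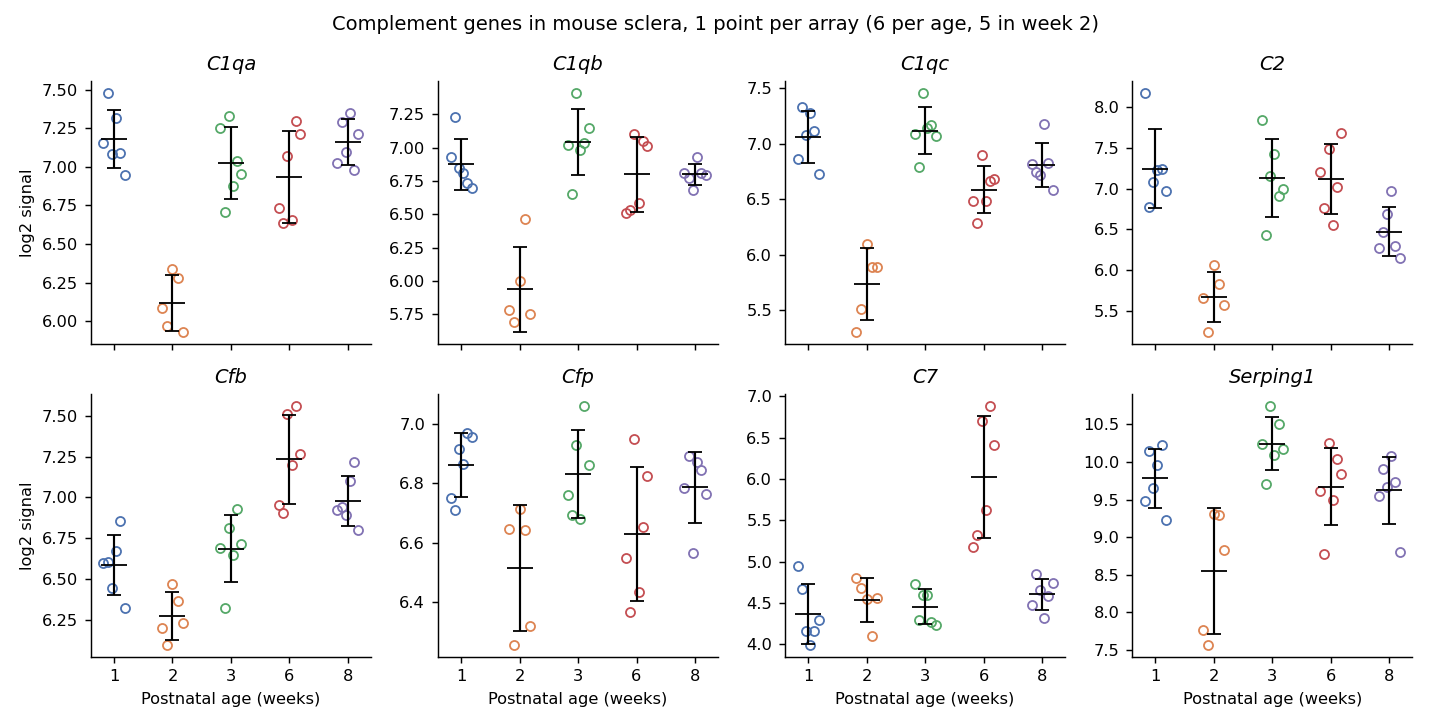
Log2 signal of each measured complement gene (vertical axis, scaled to the gene) against postnatal age in weeks (horizontal axis). Each point is 1 array, with 5 points in week 2 because replicate 4 held no values of its own, and the bars give the mean and SD; C1qa, C1qb, C1qc and C2 had no array of week 2 as high as any array of the other ages, and C7 had no array of week 6 as low as any of the other ages.

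The 250 bases before the start of transcription are shown for C1qb and C1qc, which lie next to each other on chromosome 4 and were both upregulated between weeks 2 and 3, and for C7, which took a course of its own. Of the 8 measured genes, 4 had such a sequence in the RefSeq tables used here (build GRCm38.p6). Capitals mark a match to the PU box GAGGAA, bound by the myeloid factor PU.1, or its reverse complement TTCCTC in C1qb and C1qc, and to the GAS element TTCNNNGAA, bound by STAT proteins, in C7.
C1qb, chr4:136886201-136886450, minus strand: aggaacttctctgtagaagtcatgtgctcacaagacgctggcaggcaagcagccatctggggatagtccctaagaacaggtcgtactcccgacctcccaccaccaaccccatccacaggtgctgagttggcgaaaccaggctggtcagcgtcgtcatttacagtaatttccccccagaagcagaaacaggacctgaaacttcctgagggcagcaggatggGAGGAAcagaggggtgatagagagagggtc
C1qc, chr4:136892915-136893164, minus strand: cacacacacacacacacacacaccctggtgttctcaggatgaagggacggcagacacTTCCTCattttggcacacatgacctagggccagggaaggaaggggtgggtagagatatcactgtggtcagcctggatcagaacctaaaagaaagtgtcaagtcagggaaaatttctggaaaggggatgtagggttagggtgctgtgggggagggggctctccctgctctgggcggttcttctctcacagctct
C7, chr15:5063774-5064023, minus strand: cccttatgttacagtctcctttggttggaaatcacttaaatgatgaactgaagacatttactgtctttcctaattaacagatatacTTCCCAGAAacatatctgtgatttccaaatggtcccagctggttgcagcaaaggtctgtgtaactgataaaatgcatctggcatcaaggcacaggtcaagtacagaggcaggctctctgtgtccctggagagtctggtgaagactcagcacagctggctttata
The match lay at bases -30 to -25 in C1qb, at -193 to -188 on the other strand in C1qc and at -164 to -156 in C7. Searched on both strands, the PU box occurred in 23.3% and the GAS element in 7.02% of the 32851 windows of the same length, and the core of the interferon-stimulated response element, present in 2.98% of them, was in none of these 3. The fourth sequence, that of Cfp, held none of the motifs, and no matches overlapped. The motifs were chosen after the sequences were seen, and a match describes letters only.

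C1qa, C1qb and C1qc encode the A, B and C chains that together form C1q, the recognition molecule of the classical pathway. The C1qc signal (transcript cluster 10517513) averaged 7.06 ± 0.233, 5.74 ± 0.321, 7.12 ± 0.214, 6.58 ± 0.211 and 6.81 ± 0.199 at weeks 1, 2, 3, 6 and 8 (SD, with n = 6, and n = 5 at week 2, here and below). The 5 arrays of week 2 read 5.31, 5.51, 6.10, 5.88 and 5.89, against a lowest, median and highest of 6.72, 7.09 and 7.33 in week 1. All arrays of week 2 were thus below all of week 1, and C1qc was downregulated in week 2 by a log2 fold change of -1.32 (SE 0.131, adjusted p = 3.31e-09).

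C1qa (10517517) took the same course. It averaged 7.18 ± 0.189, 6.12 ± 0.181, 7.03 ± 0.234, 6.93 ± 0.295 and 7.16 ± 0.148 in weeks 1, 2, 3, 6 and 8. The arrays of week 2 read 6.08, 5.97, 6.34, 6.28 and 5.93, against 6.95, 7.12 and 7.48 as the lowest, median and highest of week 1, and the log2 fold change was -1.06 (SE 0.121, adjusted p = 3.52e-08). No array overlapped between these 2 ages. Without week 1 replicate 2 the change was -0.997 and missed the fold threshold.

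C1qb (10517508) lay on the other side of that threshold. It averaged 6.87 ± 0.193, 5.94 ± 0.319, 7.04 ± 0.245, 6.80 ± 0.283 and 6.80 ± 0.0793 in weeks 1, 2, 3, 6 and 8. The arrays of week 2 read 5.78, 5.69, 6.00, 6.47 and 5.75, against 6.69, 6.83 and 7.23 as the lowest, median and highest of week 1. The groups did not overlap, and the difference had an adjusted p of 6.19e-07, but its log2 fold change of -0.94 was a fold of 1.92 and C1qb was not called. Without week 2 replicate 5, the highest of its age, it was -1.04 and passed.

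C2 (10450344) encodes the protease that, once cleaved, forms the C3-cleaving enzyme of the classical and lectin pathways together with C4. It averaged 7.24 ± 0.488, 5.67 ± 0.304, 7.13 ± 0.477, 7.12 ± 0.430 and 6.47 ± 0.304 in weeks 1, 2, 3, 6 and 8. The arrays of week 2 read 5.65, 5.24, 6.06, 5.83 and 5.57, against 6.77, 7.15 and 8.17 as the lowest, median and highest of week 1. Again the 2 ages did not overlap, and C2 had the largest decrease of the 8 genes in week 2, with a log2 fold change of -1.57 (SE 0.221, adjusted p = 7.4e-07).

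Serping1 (10484463) encodes C1 inhibitor, which blocks the proteases of C1. It averaged 9.78 ± 0.392, 8.55 ± 0.833, 10.24 ± 0.354, 9.67 ± 0.516 and 9.62 ± 0.442 in weeks 1, 2, 3, 6 and 8. The arrays of week 2 read 7.76, 7.56, 9.30, 9.29 and 8.82, against 9.23, 9.81 and 10.22 as the lowest, median and highest of week 1. The spread of week 2 was thus wide, and 2 of its arrays reached into the range of week 1. Serping1 was downregulated in week 2 by a log2 fold change of -1.23 (SE 0.277, adjusted p = 3.24e-04), but when the interquartile range of the arrays entered the fit as a covariate the change was -0.60 (adjusted p = 0.249) and the call was lost.

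Altogether, 4 of the 8 complement genes were downregulated and none was upregulated in week 2 versus 1, where 7.73% of all transcript clusters were downregulated, 3.82% were upregulated and 11.6% were called in either direction. The median log2 fold change of the 8 genes was -0.997, beside 0.06 over all transcript clusters. With no fold threshold 7 of the 8 passed, against a background of 68.2%, and in 4 of the 8 the arrays of the 2 ages did not overlap, against 34.7%.

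In week 3 versus 2 the direction was opposite. C1qb, C1qc, C2 and Serping1 were upregulated, the last 3 of which had been downregulated in week 2 versus 1, which makes 4 of the 8 genes where 2.67% of all transcript clusters were upregulated. Serping1 had the largest difference, with arrays of 9.71, 10.20 and 10.75 (lowest, median, highest) in week 3, against 7.76, 7.56, 9.30, 9.29 and 8.82 in week 2. These ages did not overlap, and its log2 fold change was 1.69 (SE 0.277, adjusted p = 2.07e-05), a call that was lost with the interquartile range covariate (0.97, adjusted p = 0.179). C2 followed with 1.45 (adjusted p = 8.15e-06), C1qc with 1.38 (adjusted p = 7.45e-09) and C1qb with 1.11 (adjusted p = 2.17e-07), and none of their arrays overlapped between the 2 ages. C1qa had 0.91 (adjusted p = 1.33e-06), with no overlap either, and was under the fold threshold. In all, 5 of the 8 genes did not overlap, where 23% of all transcript clusters did not. The median over the 8 genes was 1.01, beside -0.05 over all transcript clusters.

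**Figure D2:**
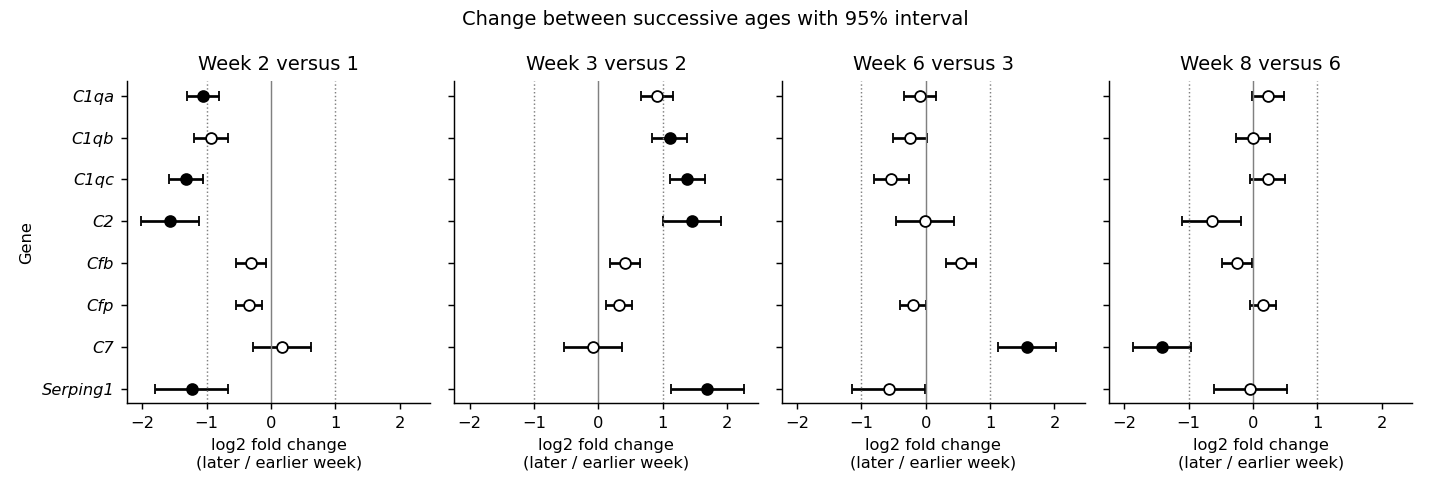
Log2 fold change of each complement gene (horizontal axis, later over earlier week) between successive ages, with the 95% interval from the limma fit. Filled points were called at a fold change of 2 or more and an adjusted p of 0.05 or less, dotted lines mark that fold change, and the filled points of C1qc, C2 and Serping1 lie below it in week 2 versus 1 and above it in week 3 versus 2.

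No difference between weeks 1 and 3 passed for these genes. In week 3 versus 1, 0 of the 8 were called, where 7.15% of all transcript clusters were. Of the 8, 0 had an unadjusted p under 0.05 in limma. By adjusted p alone, 48% of all transcript clusters passed in that comparison. The largest difference was that of Serping1, at 0.46 with a 95% interval of -0.11 to 1.03 (adjusted p = 0.171), an interval that reaches past the fold threshold. For C1qc the interval was -0.21 to 0.32.

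Weeks 6 and 8 were also set against week 2. In week 6 versus 2, 3 of the 8 were upregulated, namely C2 at 1.45 (adjusted p = 5.62e-06), Serping1 at 1.12 (adjusted p = 0.00146) and C7, beside 4.92% of all transcript clusters. The arrays of the 2 ages did not overlap in 6 of the 8 genes, against 21.2% of all transcript clusters. In week 8 versus 2, 3 of the 8 were upregulated, beside 1.27% of all transcript clusters, and these were C1qa at 1.04 (adjusted p = 5.43e-07), C1qc at 1.07 (adjusted p = 9.43e-07) and Serping1 at 1.07 (adjusted p = 0.00428). The count of week 8 versus 2 rested on values close to the threshold, and C1qa was the 1 gene left without week 2 replicate 1 or without week 8 replicate 4, and with the interquartile range covariate. For Serping1 the call in week 6 versus 2 was lost without week 2 replicate 1 (0.96) or replicate 2 (0.92), which were its lowest arrays. In order of level, C1qa, C1qb and C1qc had 4 ages (weeks 1, 3, 6 and 8) of which no neighbours differed at an adjusted p of 0.05 or less, with week 2 below them. Ages further apart in that order did differ for C1qc, which had -0.53 in week 6 versus 3 (adjusted p = 0.00109) and -0.48 in week 6 versus 1 (adjusted p = 0.00321), both under the fold threshold. C2 had weeks 1, 3 and 6 together, then week 8, with a log2 fold change of -0.65 against week 6 (adjusted p = 0.023), and week 2 last.

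C7 (10427436), which joins C5b and C6 in the first step of the membrane attack complex, took a different course. It averaged 4.37 ± 0.362, 4.54 ± 0.266, 4.45 ± 0.209, 6.02 ± 0.736 and 4.60 ± 0.190 at weeks 1, 2, 3, 6 and 8. The 6 arrays of week 6 read 5.18, 5.32, 6.70, 5.63, 6.88 and 6.41. The highest array of any other age was 4.94 in week 1, so that no array of week 6 overlapped with those of another age, although the 6 mice of week 6 differed more among themselves than those of the other ages. Because the mean of replicates 4 and 6 was tied to that of the other 4 arrays of week 6, the spread between these 2 sets was not independent.

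C7 was upregulated in week 6 versus 3 by 1.57 on the log2 scale (SE 0.22, adjusted p = 1.05e-06), in week 6 versus 2 by 1.48 (adjusted p = 3.81e-06) and in week 6 versus 1 by 1.65 (adjusted p = 1.02e-06). It was downregulated in week 8 versus 6, at -1.42 (adjusted p = 1.15e-05). It was the 1 gene of the 8 called in these comparisons other than that with week 2. Of all transcript clusters, 3.9% were upregulated in week 6 versus 3 and 2.52% in week 6 versus 1, and 2.67% were downregulated in week 8 versus 6. Among weeks 1, 2, 3 and 8 no difference of C7 passed, the largest being 0.23 in week 8 versus 1 with a 95% interval of -0.22 to 0.68. Its mean over the 30 arrays, 4.80, was under the signal of the median transcript cluster, so C7 was not tested where dim transcript clusters were left out.

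Cfb (10450325) encodes factor B, which has in the alternative pathway the place that C2 has in the classical one, and lies next to C2 on chromosome 17. It averaged 6.58 ± 0.184, 6.27 ± 0.147, 6.68 ± 0.205, 7.23 ± 0.274 and 6.98 ± 0.152 in weeks 1, 2, 3, 6 and 8. The arrays of week 6 had a lowest, median and highest of 6.91, 7.23 and 7.56, against 6.20, 6.10, 6.47, 6.37 and 6.23 in week 2. They did not overlap, yet the log2 fold change of 0.96 (SE 0.113, adjusted p = 1.08e-07) was a fold of 1.95, and Cfb was called in none of the 10 comparisons. With array weights it was 1.01 and passed, as it did without week 2 replicate 3 or without week 6 replicate 1 or 2. Compared with week 3, the level of week 6 was higher by 0.55 (adjusted p = 1.69e-04), and in week 2 versus 1 the difference was -0.31 (adjusted p = 0.0163).

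Cfp (10603860), on the X chromosome, encodes properdin, which stabilises the enzyme formed by factor B. It averaged 6.86 ± 0.109, 6.52 ± 0.212, 6.83 ± 0.148, 6.63 ± 0.226 and 6.79 ± 0.119 in weeks 1, 2, 3, 6 and 8. Its arrays overlapped between all pairs of ages, and it was called in no comparison. The largest difference was -0.35 in week 2 versus 1, with a 95% interval of -0.55 to -0.15 (adjusted p = 0.00271), which does not reach the fold threshold. Its differences of week 6 versus 1 and week 8 versus 2 had adjusted p of 0.0439 and 0.0348, and 0.0563 and 0.0635 once the tied arrays were accounted for.

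Week 8 was also set against weeks 1 and 3, and 0 of the 8 genes were called in either comparison, where 7.19% of all transcript clusters were called against week 1 and 5.12% against week 3. With an unadjusted p under 0.05 in limma there were 2 genes in week 8 versus 1, C2 at -0.77 and Cfb at 0.40, and 4 in week 8 versus 3, where C2 had the largest difference at -0.65. By adjusted p alone 2 of the 8 passed in each, where 54.1% of all transcript clusters passed against week 1 and 43% against week 3.

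Within an age, the complement genes varied together to different degrees. Deviations of each array from the mean of its age correlated with an r of 0.798 between C1qa and C1qb, 0.652 between C1qa and C1qc and 0.674 between C1qb and C1qc, over the 29 arrays with values of their own. The highest r of the 28 pairs was that of C1qc and Serping1, at 0.881, and the 7 pairs with C7 had r between 0.122 and 0.53. The 2 genes of a pair share the array and its scaling, so these values are a description without a test. Arrays with high Serping1 for their age thus tended to have high C1qc.

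**Figure D3:**
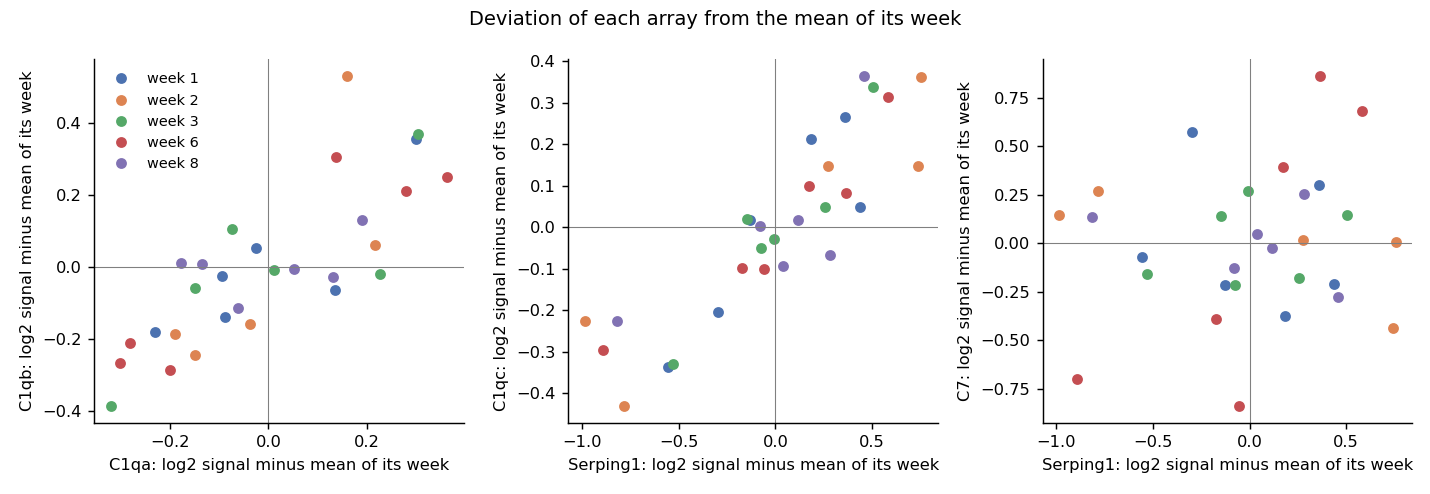
Deviation of each array from the mean of its age in log2 signal, for C1qa and C1qb, Serping1 and C1qc, and Serping1 and C7 (first gene horizontal, second vertical), with 1 point per array coloured by age. The first 2 panels run along a diagonal (r = 0.798 and 0.881), and the third does not (r = 0.126).

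The genes whose course was most like that of a complement gene were ranked by Pearson r over the 30 arrays among 19930 genes, as a description over arrays that the genes share. For C1qb they were Pmepa1 (0.913), Ctdnep1 (0.905), P4ha2 (0.896), Man2a1 (0.884) and Aebp1 (0.881). P4ha2, a subunit of the enzyme that hydroxylates collagen prolines, averaged 6.95, 6.20, 6.97, 6.71 and 6.74 in weeks 1, 2, 3, 6 and 8, low in week 2 like C1qb. For Serping1 they were Igfbp5 (0.973), Timp2 (0.97), Ddr2 (0.93), Prelp (0.929) and Rarres2 (0.927).

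Among these, Timp2 is an inhibitor of matrix metalloproteinases, Ddr2 a collagen receptor and Prelp a proteoglycan of connective tissue. Igfbp5 had an r of 0.954 with Serping1 within ages. For C7 the ranked genes were Gpr65 (0.844), Efhc2 (0.834), Vmn1r16 (0.827), Zeb2os (0.82) and Olfr206 (0.817). Gpr65, an acid-sensing receptor of leukocytes, averaged 4.50, 4.63, 4.62, 5.53 and 4.76 in weeks 1, 2, 3, 6 and 8, highest in week 6 like C7. Within ages its r with C7 was 0.343, and its mean signal of 4.81 was under that of the median transcript cluster. Vmn1r16 and Olfr206 had mean signals of 2.58 and 2.91, at the dim end of the arrays.

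The other genes of the system were followed with a list of 46, of which 40 were measured. In week 2 versus 1, 4 of the 40 were downregulated and 1 was upregulated, and in week 3 versus 2, 5 were upregulated and none was downregulated. Of all transcript clusters, 7.73% were downregulated and 3.82% upregulated in week 2 versus 1, so that those counts lay near the background, and 2.67% were upregulated in week 3 versus 2. Their median log2 fold changes were 0.17 in week 2 versus 1 and 0.01 in week 3 versus 2, beside 0.06 and -0.05 over all transcript clusters. Over all 10 comparisons 9 of the 40 were called at least once and 6 of the 8, where 23.1% of all transcript clusters were.

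In the classical pathway, C4b, which encodes the C4 protein that C1 cleaves, averaged 6.86 ± 0.496, 5.78 ± 0.239, 6.86 ± 0.428, 7.09 ± 0.227 and 7.31 ± 0.220 in weeks 1, 2, 3, 6 and 8. It was downregulated in week 2 versus 1 (-1.08, adjusted p = 1.38e-05) and upregulated in week 3 versus 2 (1.08, adjusted p = 3.99e-05). C4a is a near-identical copy, so that the split of signal between these genes is uncertain. C4a, named after its values were seen, was not called, with -0.11 in week 2 versus 1 (adjusted p = 0.419). C1s1, the protease of C1 that cleaves C4 and C2, was upregulated in week 3 versus 2 (1.02, adjusted p = 0.00161) and in week 6 versus 2 (1.11, adjusted p = 6.36e-04).

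Among the regulators, Clu, which encodes clusterin, a chaperone that keeps terminal complexes from inserting into membranes, was downregulated in week 2 versus 1 (-1.28, adjusted p = 1.81e-08) and upregulated in week 3 versus 2 (1.25, adjusted p = 1.08e-07). Cd46, a cofactor for the cleavage of C3b and C4b, was downregulated in week 2 versus 1 (-1.21, adjusted p = 3.36e-10) and in week 8 versus 1 (-1.12, adjusted p = 3.71e-09). Cd59a, which blocks the last step of pore formation, was downregulated in week 8 versus 3 (-1.34, adjusted p = 4.44e-05), although its paralogue Cd59b may share probes with it. Vtn, which encodes vitronectin, was downregulated in week 6 versus 3, with 6.98 ± 0.387 in week 6 and 8.98 ± 0.399 in week 3 (adjusted p = 1.76e-06).

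Among receptors and lectins, Itgam, the alpha chain of complement receptor 3, was lowest in week 1. It averaged 6.41 ± 0.459, 8.59 ± 0.595, 9.05 ± 0.604, 8.42 ± 0.358 and 9.01 ± 0.652 in weeks 1, 2, 3, 6 and 8, and was upregulated in week 2 versus 1 by 2.18 on the log2 scale (SE 0.289, adjusted p = 3.04e-07). Its partner chain Itgb2, named after its values were seen, was called in no comparison, with 0.35 in week 2 versus 1 (adjusted p = 0.00246). Colec12, a scavenger receptor with a collectin domain, was downregulated in week 2 versus 1 (-1.37, adjusted p = 1.91e-05) and upregulated in week 3 versus 2 (1.24, adjusted p = 1.72e-04). Cd93, once described as a receptor for C1q, was downregulated in week 8 versus 2 (-1.23, adjusted p = 0.00176).

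With the interquartile range covariate, C4b and Itgam held the calls given above, as did Vtn in week 6 versus 3 and Cd93. The calls of C1s1, Clu, Cd46, Cd59a and Colec12 were lost, with values such as -0.79 for Clu (adjusted p = 0.00125) and -0.93 for Cd46 (adjusted p = 2.52e-05) in week 2 versus 1, and 0.32 for C1s1 (adjusted p = 0.672) in week 3 versus 2.

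Of the terminal components besides C7, the 5 measured (C6, C8a, C8b, C8g and C9) were called in none of the 10 comparisons by limma, while 0 to 4 of them had an unadjusted p under 0.05 in a comparison. C7 was thus the 1 terminal component called in week 6 versus 3. In that comparison 4 of the other 5 had an unadjusted p under 0.05, where 60.3% of all transcript clusters did. Of these, C6, C8b and C9 were higher in week 6 and C8g was lower (-0.24), all named after their values were seen, and the median log2 fold change of the 5 was 0.28, beside 0.09 over all transcript clusters.

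**Figure D4:**
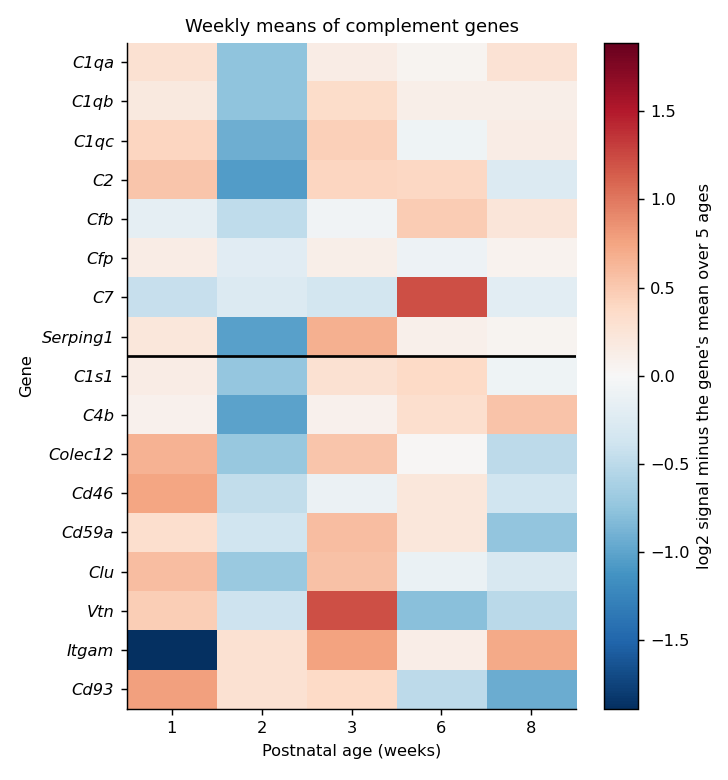
Mean log2 signal of each age minus the mean of the 5 ages of the gene (colour), for the 8 measured complement genes above the line and the 9 other complement genes called at least once below it. Week 2 is the lowest age for C1qa, C1qb, C1qc, C2, Cfb, Cfp and Serping1, C7 is highest in week 6, and Itgam is lowest in week 1.

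Markers of some cell types moved with the low of week 2 and those of others against it, and their values are given beside it. The 20 macrophage markers averaged 6.30, 5.87, 6.29, 6.56 and 6.34 in weeks 1, 2, 3, 6 and 8, and their means per array lay between 5.77 and 5.99 in week 2, against 6.04 and 6.44 in week 1. Only 9 of the 20 had a mean signal above that of the median transcript cluster. Of the 20, 4 were downregulated in week 2 versus 1 and none was upregulated, namely Csf1r (-1.52), Mrc1 (-1.44), Lyz2 (-1.61) and F13a1 (-1.40), and 3 were upregulated in week 3 versus 2, Csf1r (1.05), Lyz2 (1.69) and Laptm5 (1.37). The median change of the 20 in week 2 versus 1 was -0.34, beside 0.06 over all transcript clusters. Of all transcript clusters, 7.73% were downregulated in week 2 versus 1 and 2.67% upregulated in week 3 versus 2. In week 6 versus 3, where C7 was upregulated, Mpeg1 was the 1 macrophage marker called, at 1.02 (adjusted p = 1.36e-10). In that comparison 16 of the 20 had an unadjusted p under 0.05 in limma, where 60.3% of all transcript clusters did. The median change of the 20 was 0.33, beside 0.09 over all transcript clusters.

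Of 13 fibroblast markers, 7 were downregulated in week 2 versus 1, with Lum, the proteoglycan lumican, at -2.41, and 3 were upregulated in week 3 versus 2. Their means per array lay between 8.44 and 9.53 in week 2, against 9.59 and 10.3 in week 1. Markers of the retinal pigment epithelium moved further, with 7 of 8 downregulated in week 2 versus 1, 7 of 8 upregulated in week 3 versus 2, 3 of 8 upregulated in week 6 versus 3 and 6 of 8 downregulated in week 8 versus 6. Those of photoreceptors averaged 5.90 in week 2 and 9.62 in week 1, and 12 of 12 markers of surface epithelium were upregulated in week 2 versus 1. Lists of other blood cells had no marker called in week 2 versus 1. An unadjusted p under 0.05 in limma was found for 10 of 13 markers of neutrophils and monocytes and 8 of 8 of lymphocytes. Their median changes were 0.35 and 0.46. By adjusted p alone, 68.2% of all transcript clusters passed in that comparison. In both lists only 1 marker had a mean signal above that of the median transcript cluster. A list of 7 liver-made plasma proteins, also with 1 above it, had 6 with an unadjusted p under 0.05 and a median change of 0.47. Of 10 endothelial markers, 2 were downregulated in week 2 versus 1, 3 were upregulated in week 3 versus 2, and 8 were downregulated in week 6 versus 3. Of all transcript clusters, 7.73% were downregulated in week 2 versus 1, 2.67% upregulated in week 3 versus 2 and 3.68% downregulated in week 6 versus 3. The interquartile range of the arrays was also smallest in week 2. It lay between 2.22 and 2.56 in week 2, between 2.6 and 2.79 in week 1 and between 2.71 and 2.8 in week 3. Because these ranges did not overlap with that of week 2, the covariate given above cannot separate array spread from age there. The part of these cell types and of the array spread in the course of the complement genes was not tested.

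**Figure D5:**
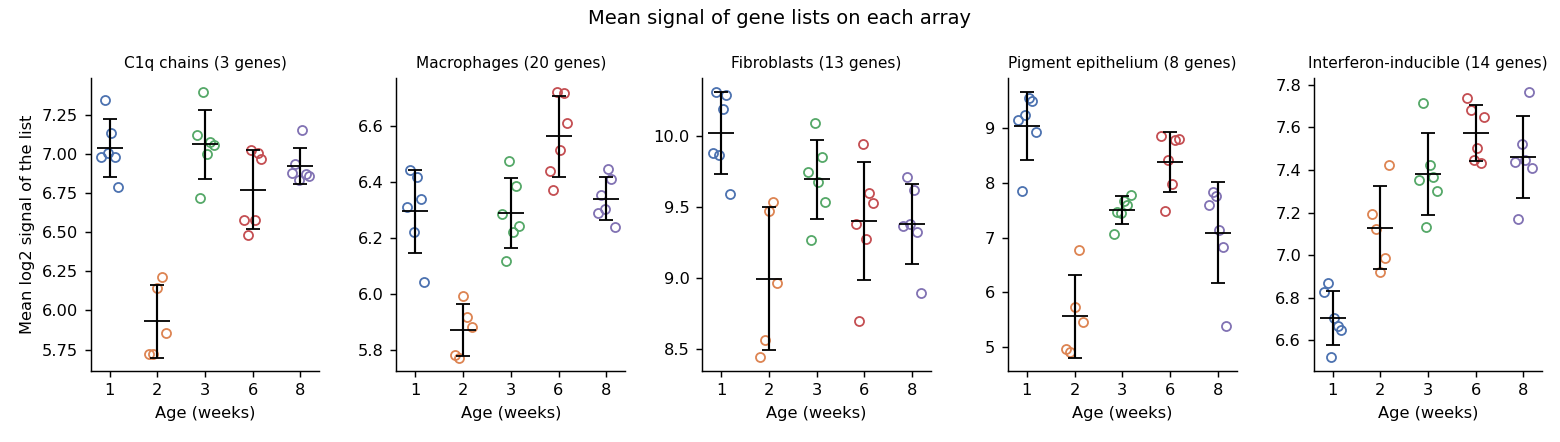
Mean log2 signal of 5 gene lists on each array (vertical axis, scaled to the list) against postnatal age in weeks, with 1 point per array, 5 points in week 2, and bars for the mean and SD. The C1q chains, macrophage, fibroblast and pigment epithelium lists are lowest in week 2, whereas the 14 interferon-inducible genes averaged 7.13 in week 2 and 6.71 in week 1.

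Transcription of several complement genes is known to respond to interferon-gamma and to acute phase cytokines, so genes of both responses were followed. Of 14 interferon-inducible genes, 5 were upregulated in week 2 versus 1, where 3.82% of all transcript clusters were. They included Irf1 (1.33), Psmb8 (1.28), Irf7 (1.22) and Tap1 (1.11). B2m, named after its values were seen, was the 1 downregulated gene (-1.08). In week 6 versus 3, Ifit1 was upregulated by 2.08 on the log2 scale (adjusted p = 2.17e-06) and the other 13 were not called. Of 15 acute phase and cytokine genes, 0 were called by limma in week 2 versus 1 and 8 had an unadjusted p under 0.05, with a median change of 0.35. In that comparison 68.2% of all transcript clusters passed by adjusted p alone. Only 6 of the 15 had a mean signal above that of the median transcript cluster. In week 3 versus 2, 3 of the 15 were upregulated, Lcn2 (1.59), Nfkbia (1.41) and Cebpd (1.17), where 2.67% of all transcript clusters were. In week 6 versus 3, Il1b was upregulated by 1.10 on the log2 scale (adjusted p = 1.46e-08) and Nfkbia was downregulated (-1.16).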

How the data were processed

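Total RNA of single sclerae was hybridised to 30 Mouse Gene 1.0 ST arrays. The log2 values were deposited by the authors. By the methods they came from robust multiarray averaging followed by a correction for scan date, while the notes of the submitters list GCRMA and Partek 6.5, which leaves the background correction unknown. The sources used here do not state the sex of the animals. As the report says, 1 array of week 2 and a pair of week 6 were tied to the rest of their age.

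A linear model with a mean for each age was fitted to all 35556 transcript clusters over the 30 arrays (limma 3.58.1, R 4.3.3). Each of 10 comparisons was adjusted by the method of Benjamini and Hochberg. A transcript cluster was called at a fold change of 2 or more and an adjusted p of 0.05 or less. SEs are those of the fit, and the number of arrays limits the precision. The fit was tested on simulated data. Symbols came from the platform annotation, in which 21789 transcript clusters carried 1 symbol, 1621 several and 12146 none. The members and the lists of other genes were chosen with earlier results of these data known. All 9 complement genes were to be named, with other listed genes where called, and the 5 genes most correlated with C1qb, C7 and Serping1; C3 could not be followed.

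Alternatives were another scaling (median, quantile), array weights, only the ages compared, a replicate block, a trended robust variance, no fold threshold, bright transcript clusters, those with 1 symbol, the mean of all transcript clusters of a gene, an interquartile range covariate and leaving out each array. Array weights were estimated without week 2 replicate 4. The labels do not state whether arrays with the same replicate number belong together.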

Additional observations from a re-analysis of the deposited data

Results flagged for a closer look

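In 1 of 40 groups of arrays (8 genes at 5 ages), an array stood apart from the others by the ratio of its gap to the range. C2 in week 1 replicate 1 had a log2 signal of 8.17, with the nearest other array of week 1 at 7.24 and the farthest at 6.77, a ratio of 0.661, above Dixon's critical value for 6 arrays. Chance flags about 1 in 20 groups. In week 2 the 5 arrays with values of their own were examined.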

How the results depend on the processing

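Of the 280 counts of complement genes recomputed under an alternative, 265 stayed within 1.5 times the reported count. No fold change of a complement gene with an adjusted p of 0.05 or less changed sign. Many alternatives could not move a fold change, so part of this stability was fixed in advance. These were the replicate block, only the ages compared, the trended variance, no fold threshold, the subsets of transcript clusters and the accounting for ties. Each gene had a single transcript cluster, so the mean over its transcript clusters repeated the reported fit. With no fold threshold 7 of the 8 genes were called in each comparison with week 2. The shares of all transcript clusters were 68.2%, 51.2%, 49% and 30.8% for weeks 1, 3, 6 and 8 against week 2. Week 6 had 4 such genes against week 1 and 3 against week 3, where 55.4% of all transcript clusters passed in each. Week 8 had 2 against each of weeks 1, 3 and 6, where 54.1%, 43% and 36.2% passed. Among transcript clusters above the median signal, which do not include C7, 0 genes were called when week 6 was compared with weeks 1, 3 or 8, and 7 passed the F test. With the interquartile range covariate 1 gene was called in week 8 versus 2, and Serping1 lost its calls in week 6 versus 2 (0.97, adjusted p = 0.0045) and week 8 versus 2 (0.77, adjusted p = 0.0628) as well, and C1qc that in week 8 versus 2 (0.96); the cause was not tested. After quantile normalization Serping1 in week 8 versus 2 was 0.96 (adjusted p = 0.0103). Leaving out each array gave 3 to 5 genes in week 2 versus 1, 2 to 4 in week 6 versus 2, 1 to 3 in week 8 versus 2, 4 in week 3 versus 2, 1 in each comparison of week 6 with weeks 1, 3 and 8, 0 between weeks 1 and 3 and between week 8 and either of these, and 8 in the F test. Accounting for the tied arrays called 4 genes in week 2 versus 1 and 4 in week 3 versus 2, as in the report. Over all transcript clusters it called 726 in week 8 versus 2, against 744 with all arrays.

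Arrays with the same replicate number deviated together little in the median, with an r of 0.0158 (-0.412 to 0.462) over 56 pairs and -0.00854 for other pairs. Of the 56 pairs, 13 had an r over 0.1, and 9 of 29 arrays correlated best with their own number. Whether some arrays were paired is not settled by these values. With the replicate block 4 complement genes were called in week 2 versus 1 and 4 in week 3 versus 2, and the block changed no call of a complement gene. For the other 40 complement genes, the interquartile range covariate left 3 called in week 2 versus 1 and 1 in week 3 versus 2, against 5 and 5. Of these, C4b and Itgam were shared in week 2 versus 1 and C4b in week 3 versus 2. With no fold threshold 28 and 25 of the 40 were called, where 68.2% and 51.2% of all transcript clusters were. Median centring and quantile normalization moved the median of all transcript clusters in week 6 versus 1 to 0.0541 and 0.0472, against 0.112 as deposited, and the calls of C7 held under both.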
